A study of Schmidtea mediterranea with 9 samples.

Results

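The transcripts of *nanos* (SMED30034750), *nf-yb* (SMED30003873), *eIF3c* (SMED30007934) and *lecg* (SMED30019646) were followed across ovary, testis and non-gonadal tissue of the planarian *Schmidtea mediterranea*. These 4 genes, of 36036 transcripts in the deposited tables, come from the study's panel of genes with earlier reports of gonadal expression. They were chosen from it because their levels were higher in both gonads than in non-gonadal tissue. The symbols and their pairing with transcript identifiers are those of the study. The values of each gonad against non-gonadal tissue selected the genes and are therefore given as a description, without a test. Ovary against testis was not used in the choice and was tested.

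The worms were wild-type hermaphrodites of the sexual strain, and the labels give no transgene, gene knockdown or treatment for any group. Tissue was excised by laser-capture microdissection, in which chosen areas are cut out of stained cryosections of acetone-fixed worms, and 3 RNA-seq libraries were made for each of the 3 tissues. For ovary, the captures of 14 worms went into each library (10 sectioned transversely, 4 sagittally), and for testis and for non-gonadal tissue those of 6 worms did (4 transversely, 2 sagittally). The non-gonadal captures hold many cell types, and p-values measure the spread between these pooled libraries, not between single worms.

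Nanos proteins bind RNA and, in *Drosophila*, work with Pumilio to repress translation of target messages. They are required for germ cell maintenance in many animals, and planarian *nanos* marks early germ cells of both sexes. NF-YB is the histone-fold subunit that joins NF-YA and NF-YC in NF-Y, a transcription factor that binds CCAAT boxes, and planarian *nf-yb* is known for its role in the stem cells of the male germ line. eIF3c is a core subunit of eIF3, the complex that helps to bring the small ribosomal subunit to messenger RNA at the start of translation. Lectins bind sugars, and *lecg* is named as a lectin gene.

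The starts of the coding sequence of *nanos* and *lecg* are shown because these transcripts had their highest TPM in the ovary and yet behaved differently in testis, as described below. They were read from the study's table of riboprobe and double-stranded RNA templates, of which the first 399 bases of each were at hand. The stretches follow the longest open reading frame, with no stop codon in the part at hand. Capitals mark an in-frame ATG, which is the first of the frame for *lecg*. For *nanos* it is the last of 3 in-frame ATG codons among the first 60 codons, and which of them starts translation could not be read from the sources at hand. The *nanos* stretch covers 93 codons with 33.0% G and C, and the *lecg* stretch covers 95 codons with 34.7% G and C.
nanos: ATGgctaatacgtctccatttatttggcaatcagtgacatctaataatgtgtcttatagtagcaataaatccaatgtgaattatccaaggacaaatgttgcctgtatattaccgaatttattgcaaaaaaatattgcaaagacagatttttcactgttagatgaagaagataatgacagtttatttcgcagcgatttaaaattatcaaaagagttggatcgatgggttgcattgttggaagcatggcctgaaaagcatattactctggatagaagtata
lecg: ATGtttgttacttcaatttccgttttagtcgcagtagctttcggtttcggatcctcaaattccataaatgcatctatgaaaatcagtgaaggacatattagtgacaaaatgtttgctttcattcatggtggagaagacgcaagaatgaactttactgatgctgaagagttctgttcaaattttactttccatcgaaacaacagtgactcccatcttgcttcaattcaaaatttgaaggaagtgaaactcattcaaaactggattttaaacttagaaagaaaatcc

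The libraries held between 18611584 and 25730833 counted reads. All 4 genes passed the filter on low values, which left 18416 transcripts for testing. It required at least 1 deposited CPM in at least 3 libraries. CPM is reads scaled by library size, and the deposited CPM also holds a factor for library composition. The cut-off therefore lay at 1.35 to 1.38 plain CPM in ovary libraries and at 0.632 to 0.756 in testis libraries. Sums over marker transcripts were set beside the tissue labels. The ovary markers were chosen on these samples, so their match to the labels was fixed by that choice and is no check of them. The summed level of 5 testis markers (*sped-1*, *C3H-zfn-1*, *elav2*, *bic-c* and *gapdh*) lay between 10319 and 11269 TPM (reads corrected for transcript length and scaled to 1 total per library) in testis libraries and at 107 or less elsewhere. Of these, *sped-1* alone had 7661 to 8411 TPM in testis. The summed level of 8 ovary markers lay between 1832 and 2474 TPM in ovary libraries and at 58.2 or less elsewhere. The transcript matching CGH-1, a germline RNA helicase of *C. elegans*, alone had 1473 to 2041 TPM in ovary libraries. The differences between tissues given below are log2 fold differences from edgeR, fitted to the deposited counts with TMM scaling. This scaling adjusts library totals on the assumption that most transcripts do not differ between libraries. A transcript was called where it differed at least 2-fold and its p, adjusted by the Benjamini-Hochberg method over all tested transcripts, did not exceed 0.01.

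The order of the tissues was not the same for the 4 genes. *lecg* was highest in ovary, and *nf-yb* and *eIF3c* were highest in testis. *nanos* was higher in ovary than in testis in TPM but not with TMM scaling. *lecg* was higher in ovary than in testis by a log2 difference of 3.82 (SE 0.41, n = 3 libraries per tissue, edgeR adjusted p = 1.55e-06), *nf-yb* was lower by -3.82 (SE 0.14, adjusted p = 2.87e-11) and *eIF3c* was lower by -3.92 (SE 0.13, adjusted p = 1.41e-11). *nanos* did not pass the test, at 0.08 (SE 0.12, 95% interval -0.18 to 0.34, adjusted p = 0.546). Of the 18416 tested transcripts, 31.6% were called higher in ovary than in testis and 30.4% higher in testis than in ovary, so a difference between the gonads was common among all transcripts.

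**Figure D1:**
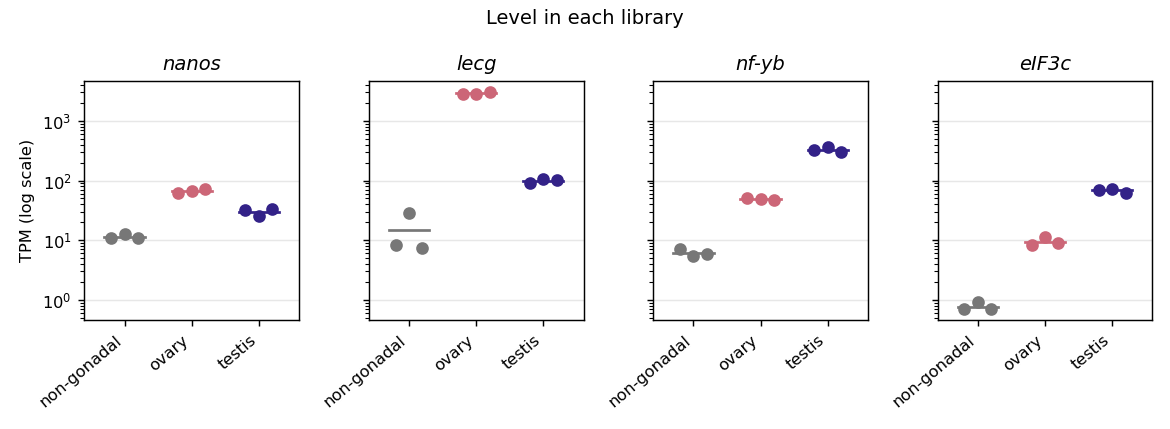
Level of each gene in TPM on a log axis, by tissue, with 1 point per library and a line at the mean of the 3 libraries. *lecg* reaches 2917 TPM in ovary, *nf-yb* reaches 331 TPM in testis, and in every panel all 6 gonad libraries lie above the 3 non-gonadal libraries.

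*nanos* had 178, 240 and 189 reads in non-gonadal replicates 1, 2 and 3, 1012, 1203 and 1148 reads in the ovary replicates, and 582, 509 and 667 reads in the testis replicates. Per transcript length these were 10.8, 12.5 and 10.8 TPM in non-gonadal tissue, 60.8, 65.8 and 72.1 TPM in the ovary libraries, and 31.9, 25.2 and 33.1 TPM in the testis libraries. The tissues did not overlap in TPM, with every ovary library above every testis library and every testis library above every non-gonadal library. Mean levels were 66.2 ± 5.68 TPM for ovary, 30.0 ± 4.26 TPM for testis and 11.4 ± 0.996 TPM for non-gonadal tissue (SD, n = 3 each). On this scale the ovary mean was 2.20 times the testis mean.

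With TMM scaling the 2 gonads did overlap for *nanos*. The ovary libraries had 35.8, 33.7 and 40.7 scaled CPM and the testis libraries had 36.2, 29.8 and 38.3 scaled CPM, against 9.29, 10.7 and 9.27 scaled CPM in non-gonadal tissue. The log2 difference over non-gonadal tissue was 1.91 (SE 0.13) in ovary and 1.83 (SE 0.13) in testis. These values share the non-gonadal libraries and selected the gene. An exact permutation test of the scaled log2 levels of ovary and testis gave p = 0.7 (two-sided, 3 against 3 libraries, smallest possible p 0.1).

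The scale mattered for *nanos* because the scaling factors of the gonads lay on opposite sides of 1. TMM factors were between 1.37 and 1.39 in ovary libraries, between 0.670 and 0.727 in testis libraries and between 1.02 and 1.04 in non-gonadal libraries. They assume that most transcripts do not differ, whereas 62.1% of tested transcripts were called between the gonads. With library size alone, the *nanos* difference of ovary over testis became 1.04 (SE 0.13, edgeR adjusted p = 5.3e-06) and passed the threshold, while the median of all tested transcripts shifted by 0.97 in the same direction. In the TMM fit, *nanos* at 0.08 lay close to the median of all tested transcripts, 0.22. With DESeq2 size factors the difference was -0.03 (SE 0.11, edgeR adjusted p = 0.796), and it was -0.00079 without ovary replicate 3 and -0.02 without testis replicate 2. No direction between the gonads is therefore given for *nanos*. The same shift left the directions of the other 3 genes as they were, since their differences were larger than it.

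**Figure D2:**
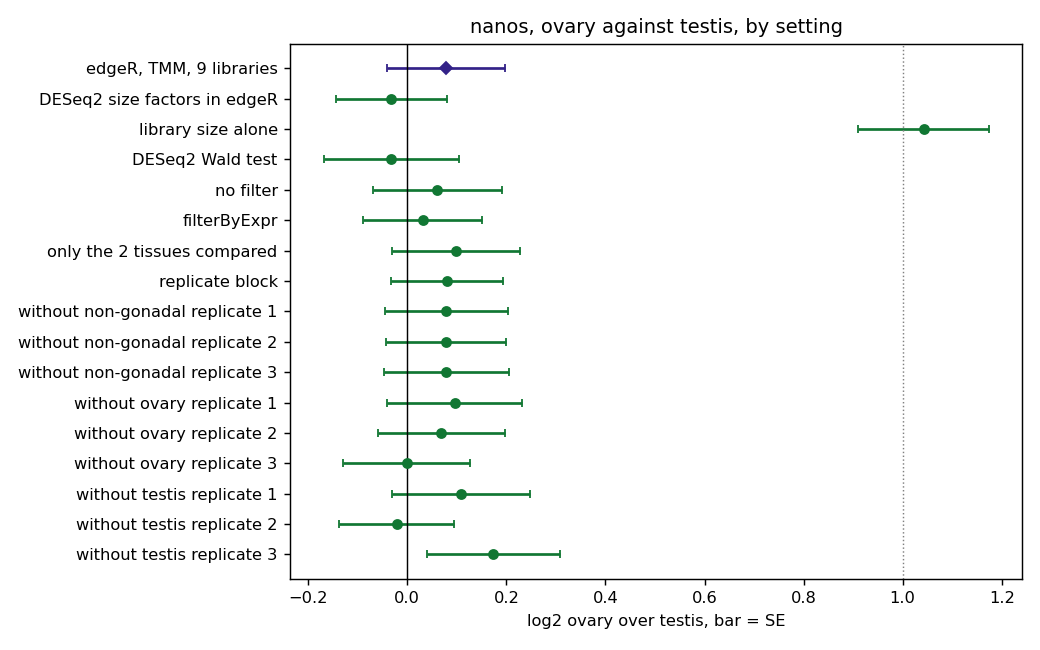
Log2 difference of *nanos* between ovary and testis, with its SE, in the edgeR fit and under each of 16 alternatives, with a dotted line at a 2-fold difference. Scaling by library size alone gives 1.04, and the other points lie between -0.03 and 0.17.

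*lecg* had 129, 520 and 124 reads in the non-gonadal replicates, 45127, 49778 and 46483 reads in the ovary replicates, and 1578, 2017 and 1953 reads in the testis replicates. These corresponded to 8.20, 28.4 and 7.40 TPM in non-gonadal tissue, 2840, 2852 and 3059 TPM in ovary, and 90.5, 104 and 102 TPM in testis. The tissues did not overlap, and the highest non-gonadal library, replicate 2, stood well apart from the other 2. Its ovary mean of 2917 ± 123 TPM (SD, n = 3) ranked 22 among 32595 transcripts with reads in that tissue. The testis mean was 98.8 ± 7.37 TPM, or 3.39% of the ovary mean in TPM and 7.08% in TMM-scaled CPM. In TPM, *lecg* was the most abundant of the 4 genes in ovary, while in testis it stood below *nf-yb* and above *eIF3c* and *nanos*.

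The log2 difference of *lecg* over non-gonadal tissue was 7.00 (SE 0.48) in ovary and 3.18 (SE 0.41) in testis. Without non-gonadal replicate 2 these values were 7.91 and 4.09, since that library held 520 of the 773 non-gonadal reads (67.3%). Between ovary and testis, the difference of 3.82 had a 95% interval of 2.93 to 4.71. Leaving out non-gonadal replicate 2 kept this difference at 3.82 and lowered its SE from 0.41 to 0.16 (edgeR adjusted p = 4.03e-10), because all 9 libraries share 1 estimate of the spread.

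In non-gonadal replicate 2, *lecg* was 3.63 times the mean of the other 2 non-gonadal libraries in TMM-scaled CPM. Several ovary markers were also high there. The CGH-1 match had 599 reads in replicate 2 against 42 and 50 in the others, and *zfs1* had 56 reads against 17 and 23. The transcript matching KLF4, a zinc-finger transcription factor, had 233 reads against 94 and 147. In TMM-scaled CPM, other transcripts of the ovary were not highest there. The transcript matching Delta-like protein C had 7.55 scaled CPM in replicate 2 against 7.83 and 8.09, and the eIF3 subunit H and eIF4A matches had 0 reads in it. Over the list, 5 of 8 ovary markers were highest in replicate 2 in TMM-scaled CPM, against 34.5% of all tested transcripts on that scale. They included a match to the Tudor-domain protein TDRD1, at only 61.8 scaled CPM against 60.6 and 60.8. A transcript annotated as *tgs-1* had 9.60 scaled CPM there against 4.44 and 8.83. The summed level of all 8 was 58.2 TPM in replicate 2 against 33.0 and 38.5 TPM. The CGH-1 match alone had 14.3 TPM there against 1.16 and 1.30 TPM. The part of ovary RNA in the *lecg* reads of this library was not tested. The remaining 3 genes did not stand apart there, at 1.16 times the mean of the other libraries for *nanos*, 0.856 times for *nf-yb* and 1.30 times for *eIF3c*.

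**Figure D3:**
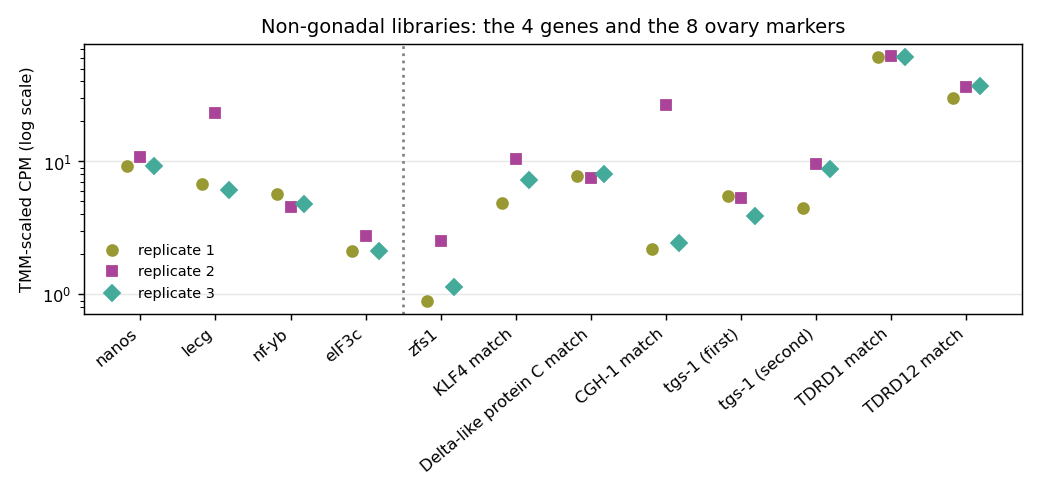
TMM-scaled CPM on a log axis in the 3 non-gonadal libraries, for the 4 genes (left of the dotted line) and the 8 ovary markers (right). Replicate 2 is apart for *lecg*, where it is 3.63 times the mean of the other 2 libraries, and for the CGH-1 match, where it is 11.5 times.

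*nf-yb* had 110, 101 and 98 reads in the non-gonadal replicates, 803, 850 and 715 reads in the ovary replicates, and 5634, 6990 and 5874 reads in the testis replicates. Per transcript length the non-gonadal libraries had 7.01, 5.53 and 5.87 TPM, the ovary libraries had 50.7, 48.8 and 47.2 TPM, and the testis libraries had 324, 363 and 306 TPM. The tissues did not overlap. Means were 331 ± 29.1 TPM in testis, 48.9 ± 1.74 TPM in ovary and 6.14 ± 0.776 TPM in non-gonadal tissue (SD, n = 3 each). The log2 difference over non-gonadal tissue was 6.19 (SE 0.16) in testis and 2.37 (SE 0.14) in ovary, and that of ovary against testis was -3.82 with a 95% interval of -4.12 to -3.52. The ovary held 7.07% of the testis level in TMM-scaled CPM.

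*eIF3c* had 41, 62 and 43 reads in the non-gonadal replicates, 490, 725 and 509 reads in the ovary replicates, and 4506, 5223 and 4516 reads in the testis replicates. Its transcript is 2817 bases long, against 753 to 791 bases for the other 3 genes, so its TPM values were lower than its reads alone would give. They were 0.698, 0.907 and 0.688 TPM in non-gonadal tissue, 8.26, 11.1 and 8.98 TPM in ovary, and 69.3, 72.5 and 62.9 TPM in testis. Again the tissues did not overlap, and means were 68.2 ± 4.89 TPM in testis, 9.46 ± 1.49 TPM in ovary and 0.765 ± 0.124 TPM in non-gonadal tissue (SD, n = 3 each). The log2 difference over non-gonadal tissue was 6.90 (SE 0.16) in testis and 2.98 (SE 0.15) in ovary, and that of ovary against testis was -3.92 with a 95% interval of -4.21 to -3.64. The ovary held 6.59% of the testis level in TMM-scaled CPM.

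**Figure D4:**
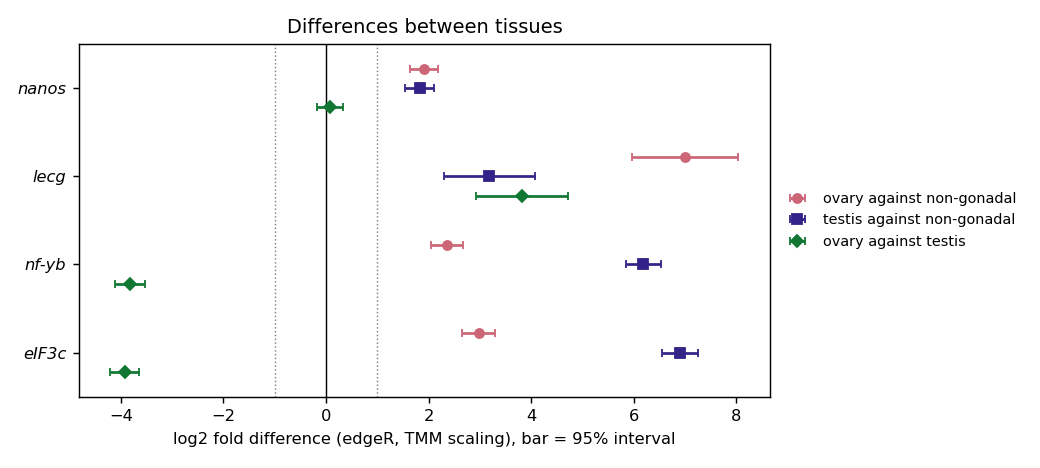
Log2 fold differences of the 4 genes from edgeR with 95% intervals, for each gonad against non-gonadal tissue and for ovary against testis, with dotted lines at a 2-fold difference. The point of ovary against testis lies at 0.08 for *nanos*, 3.82 for *lecg*, -3.82 for *nf-yb* and -3.92 for *eIF3c*.

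Exact permutation tests of the scaled levels of ovary and testis gave p = 0.1 for *lecg*, *nf-yb* and *eIF3c* (two-sided, 3 against 3 libraries), which is the smallest p this design allows. In TPM, 64.3% of tested transcripts had all ovary libraries above all testis libraries and 26.3% had the reverse, so the absence of overlap is common on that scale. For both gonads above non-gonadal tissue in TPM the share was 26.7%. In the edgeR calls, 18.3% of tested transcripts were higher in ovary and 33.4% in testis when each was set against non-gonadal tissue, and 9.92% (1826 transcripts) were higher in both. The 4 genes were selected on those contrasts, and nothing is read from their being among the 1826. In bulk tissue, fewer cells expressing a gene and less RNA per cell cannot be told apart.

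Among the 1826 transcripts higher in both gonads, 154 (8.43%) were called higher in ovary than in testis, 953 (52.2%) higher in testis than in ovary, and 719 (39.4%) were not called. *lecg* belonged to the smallest of these classes and lay near its top, with 15 transcripts of the 1826 having a larger ovary-over-testis difference. *nf-yb* and *eIF3c* belonged to the largest class without being extreme in it, as 387 and 376 transcripts had a difference further toward testis. *nanos* belonged to the class that was not called, with 432 transcripts having a larger ovary-over-testis difference. Among the 4 genes, the rise over non-gonadal tissue nearest to the 2-fold threshold was that of *nanos* in testis, at 1.83 on the log2 scale. Of the 5 testis markers, which were called higher in testis alone, the one closest below a 2-fold rise in ovary was *elav2*, at 0.87.

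Because *nf-yb* and *eIF3c* were highest in testis, their ovary reads were set beside those of the testis markers, which are known from the study to be expressed in testis. All 5 markers were called higher in testis than in ovary, as were 30.4% of all tested transcripts. Between ovary and non-gonadal tissue 0 of 5 were called, against 37.1% of all tested transcripts, with log2 differences from -0.91 to 0.87 (0 of 5 by DESeq2 as well, and 3 of 5 at an unadjusted edgeR p under 0.05). The ovary held between 0.382% and 1.44% of the testis level of these markers in TMM-scaled CPM, with *sped-1* lowest and *bic-c* highest. For *nf-yb* the share was 7.07%, and for *eIF3c* it was 6.59%. These 2 genes were chosen as raised in ovary, and the markers were picked with earlier results of these data known. Nothing is therefore read from the lower ovary share of the markers or their lack of calls in ovary. The summed level of the markers was 107, 52.8 and 107 TPM in ovary replicates 1, 2 and 3, where *nf-yb* had 50.7, 48.8 and 47.2 TPM and *eIF3c* had 8.26, 11.1 and 8.98 TPM. The part of testis RNA in the ovary reads of *nf-yb* and *eIF3c* was not tested.

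**Figure D5:**
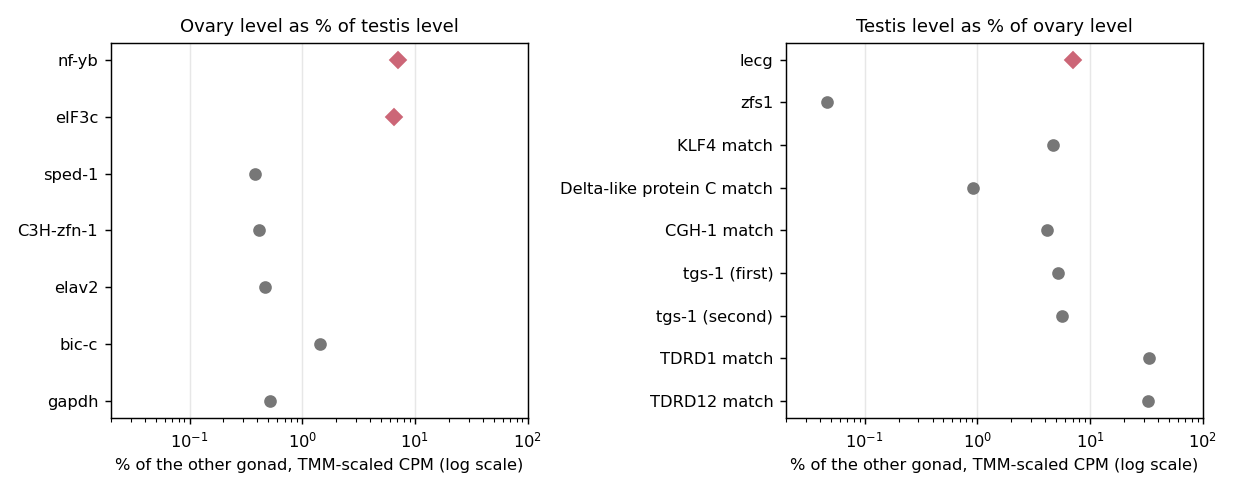
Level in the lower gonad as a percentage of the higher gonad, in TMM-scaled CPM on a log axis, for *nf-yb*, *eIF3c* and the testis markers (left) and for *lecg* and the ovary markers (right). *nf-yb* and *eIF3c* lie at 7.07% and 6.59%, above the 5 testis markers, while *lecg* at 7.08% lies within the spread of the ovary markers, from 0.0458% for *zfs1* to 33.5% for the TDRD1 match.

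For *lecg*, whose order was the opposite, the testis reads were set beside the ovary markers in the same way. All 8 ovary markers were called higher in ovary than in testis by edgeR, against 31.6% of all tested transcripts. DESeq2 called 7 of 8 and gave no p for the other, the CGH-1 match. Between testis and non-gonadal tissue, 1 of 8 was called higher by edgeR, against 33.4% of all tested transcripts. Another 4 were called lower, as were 6473 of the 18416 tested transcripts, and 3 were not called. The marker called higher was the CGH-1 match, at a log2 difference of 3.06, where *lecg* had 3.18. The testis held 7.08% of the ovary level of *lecg*, compared with 0.0458% for *zfs1*, 0.920% for the Delta-like protein C match, 4.17% for the CGH-1 match and 4.69% for the KLF4 match. The pair of transcripts annotated as *tgs-1* was at 5.17% and 5.59%, and the matches to the Tudor-domain proteins TDRD1 and TDRD12 were at 33.5% and 32.9%. *zfs1*, which had 1256 to 1401 reads in the ovary libraries, had 0, 1 and 0 reads in the testis libraries, in which *lecg* had 1578 or more. The part of ovary RNA in the testis reads of *lecg* was not tested. The annotations in these lists are those of the study, and the members were picked here with earlier results of these data known. The study chose the transcripts of the ovary list on these samples, so the direction of the lists is not independent evidence.

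Ratios within a library do not depend on how libraries are scaled to each other, since the scaling cancels. The ratio of *nf-yb* to *eIF3c* in TPM was 5.26 ± 0.872 in ovary and 4.85 ± 0.165 in testis, against 8.22 ± 1.99 in non-gonadal tissue (SD, n = 3 each). The ranges over the ovary libraries, 4.39 to 6.13, and over the testis libraries, 4.68 to 5.01, overlapped, so the ratio of these 2 genes did not separate the gonads. The ratio of *lecg* to *nanos* did, at 44.2 ± 2.26 for ovary, 3.35 ± 0.701 for testis and 1.24 ± 0.894 for non-gonadal tissue. The ratio of *nf-yb* to *nanos* went the other way, at 0.743 ± 0.0896 in ovary and 11.3 ± 2.76 in testis. The ratio of *nanos* to the KLF4 match was 0.682 ± 0.0937 in ovary and 13.8 ± 1.28 in testis, with 79.7 to 114 TPM of that transcript in ovary libraries and 1.76 to 2.68 TPM in testis libraries. The study reports *klf4* in early germ cells of the testis as well as the ovary. Whether the KLF4 match is that gene was not examined here.

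The profiles over the 9 libraries, each centred on its own mean of log2 TMM-scaled CPM, were compared by the root mean square of their differences. *nf-yb* and *eIF3c* were 0.371 apart, whereas every other pair of the 4 genes was between 1.96 and 3.21 apart. The transcripts most like *nanos* were SMED30030295 at a distance of 0.112, SMED30021492 at 0.144 and SMED30029304 at 0.147, and 784 tested transcripts lay within 0.5 of it. The nearest to *nf-yb* were SMED30025619 at 0.148, SMED30006824 at 0.156 and SMED30017591 at 0.216, with 78 transcripts within 0.5. The nearest to *eIF3c* were SMED30008204 at 0.131, SMED30026415 at 0.206 and SMED30005886 at 0.241, with 65 within 0.5. *lecg* had the fewest such transcripts. Only SMED30022025 at 0.432, SMED30007242 at 0.435 and SMED30020474 at 0.456 lay within 0.5 of it, and their own mean ovary levels were 115, 33.9 and 146 TPM against 2917 TPM for *lecg*. No names were paired with these identifiers in the sources used here.

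Because eIF3c acts in translation initiation, 4 other transcripts annotated as initiation factors were set beside it. They were found in the part of the study's list of ovary-enriched transcripts that was at hand, so the set is incomplete. The study chose them on these samples as ovary-enriched, so their being high in ovary was fixed by that choice and nothing about *eIF3c* is read from it. The same choice bears on their counts in testis and between the gonads, from which nothing is read either. Against non-gonadal tissue, all 4 were called higher in ovary, where 18.3% of all tested transcripts were. In testis 0 of 4 were called (edgeR; 0 of 4 by DESeq2, and 1 of 4 at an unadjusted edgeR p under 0.05), where 33.4% of all tested transcripts were called higher. Between the gonads, 3 of 4 were called higher in ovary than in testis, against 31.6% of all tested transcripts.

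Within the same complex, the eIF3 subunit G match had 107.8, 125 and 118 TPM in the ovary libraries, 34.9, 33.2 and 35.0 TPM in the testis libraries and 32.2, 33.0 and 33.6 TPM in the non-gonadal libraries. It was present in every tissue, and its log2 difference of ovary over testis was 0.70 (SE 0.086, edgeR adjusted p = 5.84e-06), below the 2-fold threshold. The eIF3 subunit H match had 1151, 1389 and 1121 reads in the ovary libraries, 0 reads in each of the 3 testis libraries and 1, 0 and 0 reads in the non-gonadal libraries. The eIF4A match, a match to the RNA helicase of the cap-binding complex, had 1856, 2205 and 1702 reads in the ovary libraries, 3, 2 and 0 in testis and 1, 0 and 1 outside the gonads. The eIF4G match, a match to the scaffold of that complex, had 261, 253 and 248 reads in the ovary libraries, 3, 2 and 3 in testis and 0, 1 and 2 outside the gonads. Other transcripts for eIF3c and for these factors may be present among the 36036 and were not analysed here. The values of *eIF3c* are therefore those of 1 transcript and may not stand for all eIF3c messages of a tissue.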

How the data were processed

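RNA of ovary, testis and non-gonadal captures was sequenced by the authors with strand-specific libraries. The study's methods state that reads were trimmed and that CLC Genomics Workbench mapped them to an assembled transcriptome with *zfs1* added. Which version was run, and how reads matching several transcripts were treated, could not be read from the sources at hand. The authors deposited counts of reads per transcript without normalization, together with TPM and RPKM computed from them. The deposited CPM columns hold a signal multiplied by a factor for library composition, as they sum to between 724797 and 1582270 per library. They were used only for the filter on low values, although the plan had taken them for plain CPM. Both deposited count tables held the same 324324 counts. The authors' own fold changes and p-values were not used. Lengths of transcripts were worked out from the counts and RPKM.

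The 4 genes and the marker lists were chosen with earlier results of these data known. Samples were grouped by tissue from their labels. edgeR 4.0.16 (with limma 3.58.1 in R 4.3.3) fitted 1 quasi-likelihood model of 9 libraries to 18416 of 36036 transcripts (51.1%), after a check on simulated counts. A call required a 2-fold difference and an adjusted p no greater than 0.01. The text names the 4 genes, for each the 3 transcripts with the nearest profile (CPM with a prior count of 2), and the members of the lists. Alternatives were DESeq2 size factors, library size alone, the DESeq2 1.42.0 Wald test, other filters, fits of 2 tissues, a replicate block, leaving out each library, and other units for the level. Reads carry no molecular identifiers. No genome was used, and therefore no coordinates are given.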

Additional observations from a re-analysis of the deposited data

Results flagged for a closer look

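For 3 of the 4 genes the change over non-gonadal tissue differed between the gonads by the edgeR test of ovary against testis, which is the test of that difference because both changes share the non-gonadal libraries. The change in ovary minus that in testis was 3.82 for *lecg*, -3.82 for *nf-yb* and -3.92 for *eIF3c* on the log2 scale. Each was in the same direction in all 3 libraries of the tissue. Groups of 3 libraries are too small for the test of single outlying samples, so the high *lecg* value of non-gonadal replicate 2 is given as a value only.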

How the results depend on the processing

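The ovary over testis differences of *lecg* (3.70 to 4.79), *nf-yb* (-3.94 to -2.85) and *eIF3c* (-4.06 to -2.95) kept their direction and stayed past the threshold under all 16 alternatives. For *nanos*, DESeq2 size factors gave -0.0321 and the DESeq2 Wald test -0.0321, library size alone gave 1.04, and leaving out 1 library gave -0.0212 (without testis replicate 2) to 0.17. The causes were not tested, except that library size alone moves the median of all transcripts by 0.97 (0.42 in ovary and -0.55 in testis over non-gonadal tissue) and DESeq2 size factors move it by -0.12. Library size alone raised the share of calls higher in ovary than in testis from 51.0% to 69.9% (9738 transcripts against 5828) and the number of transcripts higher in ovary when set against non-gonadal tissue from 3364 to 5311. It changed the values over non-gonadal tissue to 2.33 and 1.28 for *nanos*, 2.78 and 5.64 for *nf-yb* and 3.40 and 6.35 for *eIF3c*, in ovary and testis in that order. The total number of calls stayed within 1.5 times, at 11093 to 13940 for ovary against testis.

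Neither the labels nor the study's methods state whether same-numbered libraries came from the same worms. Correlations of the deviations of same-numbered libraries lay between -0.02 and 0.19, and 2 of 9 were above 0.1. Both were of non-gonadal with ovary libraries, at 0.194 for replicate 1 and 0.164 for replicate 2. Different-numbered libraries of these tissues lay between -0.238 and 0.112. Such correlations cannot settle whether the libraries are paired. With the replicate number as a block, the ovary over testis differences were 0.08 for *nanos*, 3.86 for *lecg*, -3.83 for *nf-yb* and -3.92 for *eIF3c*, and 11393 transcripts were called against 11430. Depth limits the non-gonadal values most, as *eIF3c* rests on 146 reads there.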
